A study of Mus musculus with 4 samples.

Results

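The genes described here are 10 cytokine and cytokine receptor genes of gut stromal cells, Il33, Il1rl1, Il6, Il1b, Il11ra1, Tnfsf13b, Tnfsf9, Csf1, Lif and Tslp. They were taken by name, 10 of 28692 genes in the count tables, and all 10 were found there by symbol. Their transcripts were counted as UMIs (unique molecular identifiers, one per captured RNA molecule) in single mesenchymal stromal cells (MSC) of small intestine and colon. Mice were C57BL6/Nrj females of 8 to 10 weeks that received no treatment. The study made 2 independent experiments with 3 mice each and each intestine has 2 libraries, so a library is the replicate, mice cannot be told apart within it, and p-values measure the spread between these libraries. The labels name both 3′ and 5′ chemistry without tying either to a library, so kit and library cannot be told apart. Cells were sorted after removal of the outer muscle layer as live integrin β1+ cells that lacked CD45, Ter119, CD31, BP3, EpCAM and L1CAM, a gate that removes most leukocytes, red cells, endothelial cells, epithelial cells and glia.

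IL-33 is an alarmin of the IL-1 family that is held in the nucleus and acts, once released, through its receptor ST2, which is encoded by Il1rl1. IL-1β, the other IL-1 family ligand here, is made chiefly by myeloid cells and drives inflammation. IL-6, LIF and IL-11 signal through receptors that share the gp130 subunit, and Il11ra1 encodes the α chain that binds IL-11. Tnfsf13b encodes BAFF, a survival factor of B cells and plasma cells, and Tnfsf9 encodes 4-1BB ligand, which costimulates T cells. CSF-1, the product of Csf1, keeps macrophages alive, and TSLP acts on dendritic cells and innate lymphoid cells in barrier tissues. Fibroblasts (FB) of the lamina propria are a known source of several of these factors.

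Cells were assigned to classes by panels of marker genes that hold none of the 10 genes. PDGFRαhi FB, which lie under the epithelium, were gated by 8 genes such as Pdgfra, F3 and Bmp5, and CD81+ FB, which lie deep in the lamina propria, by 8 genes such as Cd81, Grem1 and Pi16. FB of neither class were split by whether a cell had a UMI of Fgfr2. Pdgfra was at 741 to 2080 CPM (UMIs of the gene per 1000000 UMIs of the class in a library) in PDGFRαhi FB and at 152 to 236 CPM in the other FB classes. Cd81 was at 518 to 642 CPM in CD81+ FB and at 1.52 to 87.0 CPM in the others. Both genes are in the panels that set these classes, so their levels describe the gate and do not test it. The Fgfr2 label rests on 1 gene, and cells with few UMIs may lack an Fgfr2 UMI by chance, so the Fgfr2- class may also hold cells that express Fgfr2. Of 30603 cells kept, PDGFRαhi FB numbered 166 and 1087 in the small intestine and 531 and 2325 in the colon (replicates 1 and 2), CD81+ FB 276, 1999, 290 and 2141 in that order, Fgfr2+ FB 389, 2879, 502 and 1365, and Fgfr2- FB 320, 7166, 409 and 4915. Between 0.602% and 19.2% of the cells of an FB class lay near a limit of the gate in a library, which leaves out the Fgfr2 split. When classes were taken from clusters of cells instead, 85.2 to 98.5% of PDGFRαhi FB and 62.4 to 92.8% of CD81+ FB kept their class. Fgfr2+ FB kept theirs in 28.3% and 36.4% of small intestinal and 82.9% and 60.2% of colonic cells. For Fgfr2- FB these shares were 69.1% and 73.9% in the small intestine and 27.9% and 39.6% in the colon.

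Libraries held 14341443 to 52269372 UMIs and differed by replicate number as well as by intestine. Median depth per cell was 6968 and 8833 UMIs in the replicate 1 libraries and 2733 and 3876 in the replicate 2 libraries, and the version of the authors' counting software also followed the replicate number. Pairs of libraries shared 0 to 54 cell barcodes, at most 0.448% of the smaller library. The endothelial and immune gates held 336 and 56 cells in small intestine replicate 1 but 2 and 24 cells in small intestine replicate 2. The pericyte gate of small intestine replicate 2 and colon replicate 2 was mixed, with Pdgfra at 787 and 387 CPM against 0.0 and 49.6 CPM in replicate 1, and the smooth muscle cell (SMC) gate of small intestine replicate 2 had 274 CPM of Pdgfra, so values of these gates are given as levels only. With 2 libraries against 2, an exact two-sided permutation test cannot give a p below 0.333, so tests were made with edgeR's quasi-likelihood test on summed UMIs across all genes, with Benjamini-Hochberg adjustment. Calls needed an adjusted p under 0.05 together with a difference of more than 1.5 on the log2 scale.

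The upstream sequences of the genes that carry the main differences are shown first, to set the IL-33 and ST2 genes beside Il6. RefSeq windows of build GRCm38.p6 were available for 8 of the 10 members, Tnfsf9 and Tslp being without one. The 250 bases before each start site were searched on both strands for the NF-κB motif and for the motifs of AP-1 (TGANTCA, with N for any base), C/EBP (TTGNGCAA) and GATA factors (GATAAG), and matches are in capitals. The window of Il6 (chr5:30012864-30013113, + strand) held 3 matches, an AP-1 match that begins 249 bases before the start, a C/EBP match at 128 bases and an NF-κB match at 44 bases. Il1rl1 has 2 start sites in RefSeq, and the first (chr1:40429320-40429569, + strand) held 2 GATA matches while the second (chr1:40439379-40439628, + strand) held no match to any of the 4 motifs. Neither window of Il33 (chr19:29924863-29925112 and chr19:29945540-29945789, both + strand) held a match. Of the other matched members, Lif held 1 AP-1 match, Csf1 held 1 NF-κB match and Tnfsf13b held GATA matches in both windows and an AP-1 match in 1, while Il1b and Il11ra1 held none. Among all 32851 windows of this length, 6.75% held the AP-1 letters, 0.356% the NF-κB motif, 2.61% the C/EBP letters and 6.55% the GATA letters.
Il6: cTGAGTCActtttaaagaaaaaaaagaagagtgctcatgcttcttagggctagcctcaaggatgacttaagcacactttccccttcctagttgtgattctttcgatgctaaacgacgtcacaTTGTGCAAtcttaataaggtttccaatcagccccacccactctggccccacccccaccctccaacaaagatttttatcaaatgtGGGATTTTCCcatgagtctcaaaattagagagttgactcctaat
Il1rl1, first start: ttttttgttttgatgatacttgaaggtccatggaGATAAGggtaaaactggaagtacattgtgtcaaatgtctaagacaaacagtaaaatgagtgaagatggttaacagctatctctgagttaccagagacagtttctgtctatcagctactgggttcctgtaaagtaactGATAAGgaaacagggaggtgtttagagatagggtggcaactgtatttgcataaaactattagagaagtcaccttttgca
Il1rl1, second start: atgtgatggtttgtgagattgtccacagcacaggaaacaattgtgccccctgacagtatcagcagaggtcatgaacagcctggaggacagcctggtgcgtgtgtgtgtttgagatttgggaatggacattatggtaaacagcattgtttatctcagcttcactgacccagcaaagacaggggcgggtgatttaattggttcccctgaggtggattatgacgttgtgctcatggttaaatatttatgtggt
Il33, first start: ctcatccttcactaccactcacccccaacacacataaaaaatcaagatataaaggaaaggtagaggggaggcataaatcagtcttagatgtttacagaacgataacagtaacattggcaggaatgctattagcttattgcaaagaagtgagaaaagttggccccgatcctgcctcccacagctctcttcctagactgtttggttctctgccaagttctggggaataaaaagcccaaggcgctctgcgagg
Il33, second start: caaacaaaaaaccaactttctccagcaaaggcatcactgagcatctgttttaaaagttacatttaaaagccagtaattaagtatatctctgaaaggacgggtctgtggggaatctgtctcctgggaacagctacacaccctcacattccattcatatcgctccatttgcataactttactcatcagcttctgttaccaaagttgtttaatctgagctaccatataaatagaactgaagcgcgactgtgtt

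The counts do not say which start site a transcript used, so the letters are a description of the windows. In GENCODE vM21 (GRCm38) the 10 genes lie on 10 chromosomes, Il33 (ENSMUSG00000024810) on chromosome 19 from 29925114 to 29960718 and Il1rl1 (ENSMUSG00000026069) on chromosome 1 from 40429570 to 40465415, both on the + strand. Il6 (ENSMUSG00000025746) spans 30013114 to 30019981 of chromosome 5 and Il1b (ENSMUSG00000027398) spans 129364570 to 129371139 of chromosome 2 on the - strand. Il11ra1 (ENSMUSG00000073889, chromosome 4, 41699989 to 41769474) has near-identical copies in the mouse genome among which reads can be split, so its level is uncertain.

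Over the 4 libraries together, the FB classes held 9610 of 10661 UMIs of Il33, 17317 of 18758 of Il6 and 1274 of 1692 of Il1b. All FB classes together held 84.7%, 95.4%, 74.9% and 96.9% of the Il6 UMIs in replicates 1 and 2 of the small intestine and then of the colon. For Il33 these shares were 75.8%, 91.3%, 90.4% and 96.8%. Of the Il1b UMIs the FB held 48.7%, 93.9%, 60.0% and 39.4%, with 46.1% in the small immune gate of small intestine replicate 1 and 52.9% in that of colon replicate 2. Such shares depend on how many cells of each class a library holds, and fewer cells of a type and less RNA per cell cannot be told apart in them. Across the 10 genes, 4 FB classes and 2 replicate numbers, the colon level was the higher of the pair in 37 of 80 comparisons.

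**Figure D1:**
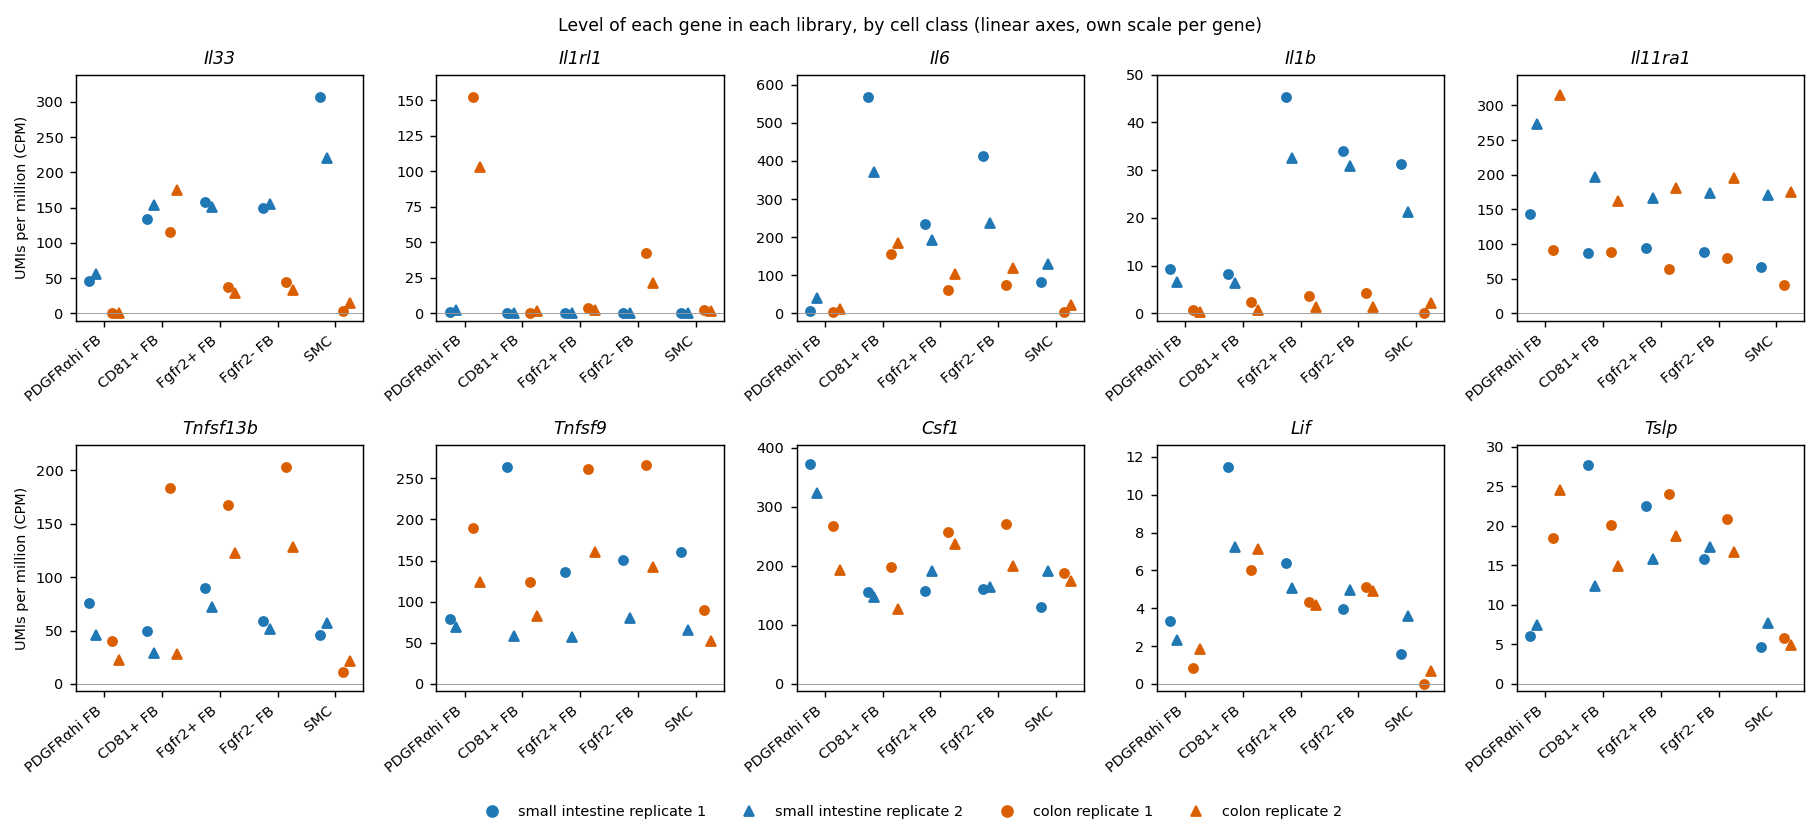
CPM (UMIs per 1000000 UMIs, linear axes that differ between genes) of each gene in 4 FB classes and SMC, 1 point per library, with small intestine in blue, colon in orange, replicate 1 as circles and replicate 2 as triangles. Il33 was at 134 to 158 CPM in 3 FB classes of the small intestine and Il1rl1 was highest in colonic PDGFRαhi FB, at 152 and 103 CPM, while Il11ra1 separated by replicate number.

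Il33, the ligand of the IL-33 and ST2 pair, was called lower in the colon than in the small intestine in PDGFRαhi and Fgfr2- FB. In PDGFRαhi FB it was at 45.4 and 56.2 CPM in the small intestine (68 and 144 UMIs) and at 0.171 and 0.925 CPM in the colon (1 and 9 UMIs). Both colonic libraries lay far below both small intestinal ones, and the difference was a fall by 6.18 on the log2 scale (SE 0.638, adjusted p = 0.0277, edgeR). The call was lost without small intestine replicate 2 (fall by 6.02, adjusted p = 0.0568, edgeR) and with doublets kept (fall by 5.06, adjusted p = 0.103, edgeR).

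Other transcripts also differed between these PDGFRαhi FB. The summed level of 16 immediate early genes was 17600 and 27100 CPM in the small intestine and 49300 and 49900 CPM in the colon, and that of 10 myeloid markers was 113 and 64.8 CPM (9 of 10 detected, Itgam at 0) against 18.4 and 15.8 CPM (10 of 10 detected). Panels of other stromal classes were also lower in the colon. The 8 SMC markers summed to 10600 and 6050 CPM in the small intestine (7 of 8 detected, Cnn1 at 0) and to 5970 and 3130 CPM in the colon (8 of 8 detected). The 8 pericyte markers summed to 1110 and 826 CPM (7 of 8 detected, Notch3 at 0) against 157 and 126 CPM (6 of 8 detected, Notch3 and Ndufa4l2 at 0), and the 8 CD81+ FB markers to 138 and 403 CPM against 69.3 and 78.6 CPM (8 of 8 detected in both). Small intestinal SMC and CD81+ FB are themselves classes with a high Il33 level. The part of these transcripts in the differences of the members was not tested.

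In Fgfr2+ FB Il33 was at 158 and 151 CPM in the small intestine and at 38.0 and 29.0 CPM in the colon. The intestines did not overlap, but the adjusted p was 0.0511 for a log2 fold change of -2.21 (SE 0.233, edgeR), just over the threshold. It passed with RLE size factors (adjusted p = 0.0492, edgeR) and with a stricter gate (adjusted p = 0.0490, edgeR), and with classes from clusters the log2 fold change was -1.05 (adjusted p = 0.178, edgeR). Over all alternatives run the adjusted p lay between 2.32e-08 (DESeq2) and 0.178. In Fgfr2- FB it was at 150 and 155 CPM against 45.3 and 33.1 CPM and fell by 2.08 on the log2 scale (SE 0.248, adjusted p = 0.0375, edgeR), a call that was lost when either small intestinal library was left out (adjusted p = 0.0862 without replicate 1 and 0.136 without replicate 2, edgeR). With clusters the fall was 3.49 (adjusted p = 0.0221, edgeR). Panels of other classes also differed in Fgfr2+ and Fgfr2- FB. The CD81+ FB markers summed to 1940 to 3260 CPM in the small intestine and 919 to 1310 CPM in the colon. The pericyte markers summed to 722 to 901 against 61.7 to 99.9 CPM, and the SMC markers to 308 to 477 against 431 to 1050 CPM. Their part in the Il33 difference was not tested.

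CD81+ FB had Il33 in both intestines, at 134 and 153 CPM in the small intestine and 116 and 175 CPM in the colon, with a log2 fold change of -0.12 (SE 0.324, adjusted p = 0.994, edgeR). The 4 values overlapped, and within replicate numbers the log2 difference was -0.215 and 0.192. SMC had 307 and 220 CPM of Il33 in the small intestine, the highest values of any class with over 100 cells, and 2.90 and 14.8 CPM in the colon, although the gate of small intestine replicate 2 also had the Pdgfra level given above.

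In numbers of cells, after each cell had been thinned to 1000 UMIs, 4.82% and 4.23% of small intestinal PDGFRαhi FB had an Il33 UMI (95% exact binomial intervals 2.10 to 9.27% and 3.11 to 5.60%). In colonic PDGFRαhi FB the thinned count was 0 of 531 cells and 1 of 2325 cells (0.043%), and 0 of 531 allows a share of up to 0.692%. Without thinning the shares were 19.9% and 10.9% in the small intestine and 0.188% and 0.344% in the colon, with median depths of 9374 and 2215 UMIs against 10589 and 3979 UMIs. Plasma cells, which should lack Il33, had it in 0 of 56 cells of small intestine replicate 1 at a median of 27200 UMIs. The immune gates of the small intestine had it in 12.5% and 33.3% of 56 and 24 cells without thinning. They had 75.5 and 158 CPM of Il33 and also 108 and 169 CPM of Pdgfra. Intervals cover counting error only.

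Il1rl1, which encodes the receptor ST2, was called higher in the colon in PDGFRαhi FB. In PDGFRαhi FB it was at 0.668 and 2.73 CPM in the small intestine (1 and 7 UMIs) and at 152 and 103 CPM in the colon (894 and 1006 UMIs). The colonic libraries were both higher, with a log2 fold change of 6.16 (SE 0.554, adjusted p = 0.0244, edgeR) and log2 differences of 7.84 and 5.24 within replicate numbers. No small intestinal library had a UMI of Il1rl1 in CD81+, Fgfr2+ or Fgfr2- FB.

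Few colonic cells held these UMIs. After thinning, 7.34% (5.27 to 9.90%) and 5.46% (4.57 to 6.47%) of colonic PDGFRαhi FB had an Il1rl1 UMI, and 85 of 531 and 322 of 2325 cells had one without thinning. A single cell of colon replicate 1 held 87 UMIs. The share in colonic CD81+ FB after thinning was 0 of 290 cells (up to 1.26%) and 0.14% of 2141 cells at similar median depths of 8662 and 4056 UMIs.

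Within colonic PDGFRαhi FB the level followed 2 markers by which the study divides these cells, Cd9 and Thbd (CD141). Cells with a Cd9 UMI and no Thbd UMI (76 and 784 cells) had 644 and 240 CPM of Il1rl1, and cells with a Thbd UMI (454 and 1425 cells) had 57.3 and 15.8 CPM. The first subset was above the second in both libraries, and its lower value exceeded the higher value of the second. Colonic cells with neither UMI numbered 1 and 116 and held 0 and 24 UMIs of Il1rl1, which was 71.6 CPM in replicate 2. With 2 libraries this is a description, without a test. Il11ra1 lay the other way, at 26.3 and 135 CPM in the first subset and 104 and 436 CPM in the second. In the small intestine 159 and 760 PDGFRαhi FB had a Thbd UMI, and the cells with Cd9 alone numbered 4 and 95 and had no Il1rl1 UMI. The median depths of the colonic subsets were 12977 and 4626 UMIs (Cd9 alone) and 10323 and 3792 UMIs (Thbd).

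Il1rl1 was also found in colonic Fgfr2- FB, at 42.4 and 21.7 CPM (132 and 401 UMIs) against 0 UMIs in the small intestine, at least 176-fold higher when the small intestinal libraries together are set at 3 counts. The fitted difference passed both thresholds (adjusted p = 0.0268, edgeR). The gene entered that fit through its colonic UMIs alone, so the call adds no support to the counts. These UMIs lay in cells close to the PDGFRαhi gate. Cells with a PDGFRαhi panel score of 0.25 to 0.5, just under the gate's limit, had 382 and 132 CPM, cells with a score of 0 to 0.25 had 36.5 and 44.6 CPM, and the remaining 342 and 3902 cells with a score under 0 had 0.0 and 4.37 CPM. When classes were taken from clusters of cells instead, Fgfr2- FB had 0.0 and 4.11 CPM and PDGFRαhi FB had 165 and 105 CPM in the colon, so the value in Fgfr2- FB depends on where that gate lies. Colonic Fgfr2+ FB had 3.74 and 2.58 CPM, at least 12.3-fold above the small intestine at 3 counts, and colonic CD81+ FB had 0.403 and 1.38 CPM, at least 3.46-fold above it.

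**Figure D2:**
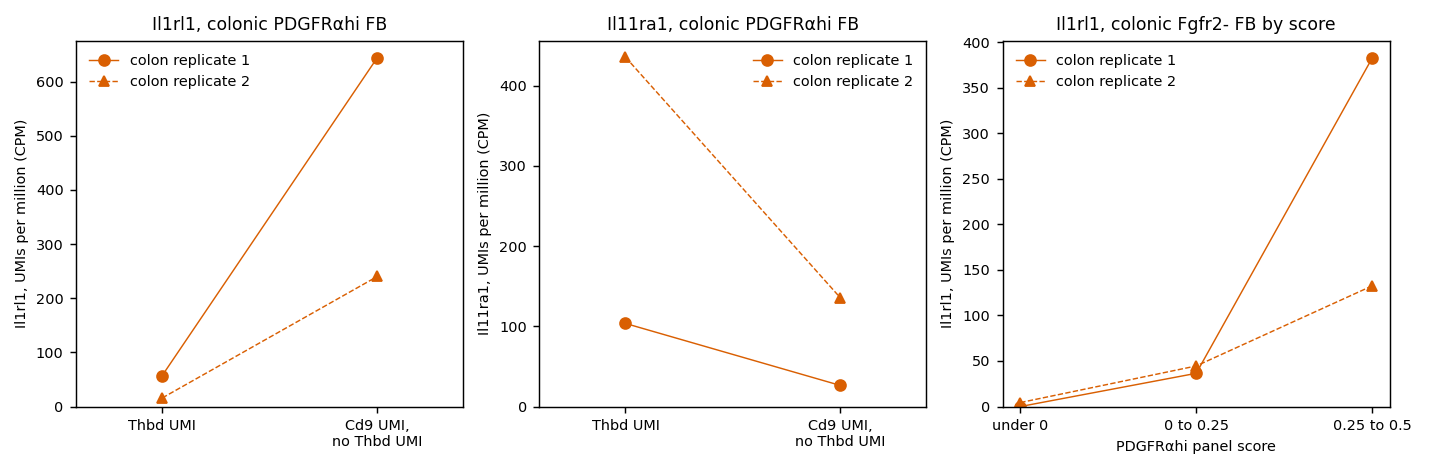
CPM (UMIs per 1000000 UMIs, linear axes from 0) of Il1rl1 and Il11ra1 in colonic PDGFRαhi FB with a Thbd UMI or with a Cd9 UMI only, and of Il1rl1 in colonic Fgfr2- FB by PDGFRαhi panel score, with 1 line per library. Il1rl1 was higher in the Cd9 subset (644 and 240 CPM) and Il11ra1 in the Thbd subset (104 and 436 CPM), and Il1rl1 of Fgfr2- FB was highest just under the gate (382 and 132 CPM).

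Il1b, the inflammatory ligand of the family, was called lower in the colon in Fgfr2- FB. In Fgfr2+ FB it was at 45.4 and 32.4 CPM in the small intestine and at 3.74 and 1.45 CPM in the colon, and in Fgfr2- FB at 34.0 and 30.9 CPM against 4.18 and 1.30 CPM. The intestines did not overlap in either class, nor in PDGFRαhi FB (9.35 and 6.64 against 0.682 and 0.206 CPM) and CD81+ FB (8.29 and 6.43 against 2.42 and 0.692 CPM). Of these 4 classes Fgfr2- FB alone passed edgeR's test without a block, with a fall by 3.95 on the log2 scale (SE 0.543, adjusted p = 0.0482, edgeR). It no longer passed with at least 1000 genes per barcode, with a stricter gate or with clusters (adjusted p 0.0574 to 0.134, edgeR). Without small intestine replicate 1 or 2 the log2 fold change was -3.85 or -4.01. In a fit blocked by replicate number all 4 classes passed (adjusted p = 2e-09, 0.0229, 6.91e-07 and 2.61e-05 for PDGFRαhi, CD81+, Fgfr2+ and Fgfr2- FB, edgeR). The labels do not say that a replicate number marks a shared experiment. In the other 3 classes the log2 fold changes were -4.07, -2.63 and -3.93 (adjusted p = 0.0807, 0.298 and 0.0628 for PDGFRαhi, CD81+ and Fgfr2+ FB, edgeR). With clusters the value in Fgfr2+ FB was -2.10 (adjusted p = 0.135, edgeR).

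The Il1b UMIs of small intestinal FB were spread thinly. They lay in 178 of 1151 and 805 of 13131 FB, with at most 8 and 4 UMIs in a cell, and the 10 FB with most UMIs held 16.6% and 3.30% of them. The immune gate had 784 and 124 CPM in the small intestine. A UMI of any of 10 myeloid markers (Csf1r, Lyz2 and others) was seen in 15.7% and 7.08% of small intestinal FB with Il1b and in 18.7% and 4.69% of those without, and Ptprc, which encodes CD45, was seen in 1 and 0 of the FB with Il1b. In the colon such a UMI was seen in 25.0% and 27.0% of the 36 and 37 FB with Il1b and in 15.4% and 5.31% of those without. The summed level of the 10 myeloid markers was 27.9 to 36.2 CPM in small intestinal Fgfr2+ and Fgfr2- FB with 9 of 10 detected (Itgam at 0) and 22.9 to 35.2 CPM in the colonic ones. The pericyte and CD81+ FB markers were lower in the colonic ones, as given above, and their part in the Il1b difference was not tested. Endothelial cells of small intestine replicate 1 had 1.98 CPM of Il1b and its pericytes had none, while pericytes of replicate 2 had 9.04 CPM (2 UMIs). SMC had 31.4 and 21.2 CPM in the small intestine and 0.0 and 2.11 CPM in the colon, so FB were not the only stromal class with Il1b.

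Between FB classes, Il1b was higher in Fgfr2+ FB than in the mean of the other 3 classes by 1.53 on the log2 scale (SE 0.155, adjusted p = 5.52e-05, edgeR), which is close to the size limit and fell under it without either small intestinal library (1.44 and 1.47). The decoy receptor gene Il1r2 was also called higher in Fgfr2+ FB, at 16.8 and 19.2 CPM in small intestinal and 7.08 and 8.37 CPM in colonic Fgfr2+ FB, a log2 fold change of 1.93 over the other classes (SE 0.199, adjusted p = 6.24e-05, edgeR).

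Among the FB classes, Il6 was highest in CD81+ FB and lowest in PDGFRαhi FB in each library. CD81+ FB had 569 and 370 CPM in the small intestine and 157 and 185 CPM in the colon, and the log2 fold change over the other FB classes was 2.22 (SE 0.254, adjusted p = 8.95e-05, edgeR). PDGFRαhi FB had 7.35 and 41.4 CPM in the small intestine and 4.78 and 11.2 CPM in the colon, a log2 fold change of -3.90 (SE 0.366, adjusted p = 1.12e-05, edgeR). Fgfr2- FB had 414, 237, 74.8 and 119 CPM and Fgfr2+ FB 235, 193, 61.4 and 104 CPM, with the small intestinal pair first and replicate 1 before replicate 2.

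In CD81+, Fgfr2+ and Fgfr2- FB both small intestinal libraries exceeded both colonic ones, yet no class passed the test between intestines. The log2 fold changes in CD81+, Fgfr2+ and Fgfr2- FB were -1.61, -1.36 and -1.83 (adjusted p = 0.241, 0.267 and 0.172, edgeR). With classes from clusters the value in Fgfr2+ FB was -0.12 (adjusted p = 0.980, edgeR), so that difference depends on how the class was drawn. In replicate 1 the log2 differences of these classes lay between -2.47 and -1.86 and in replicate 2 between -0.996 and -0.895, so their size differed with the replicate number. Pericytes of replicate 1 had 773 CPM in the small intestine and 326 CPM in the colon, above the CD81+ FB of the same libraries. After thinning, 34.1% and 25.0% of small intestinal and 10.0% and 13.5% of colonic CD81+ FB had an Il6 UMI (69.2%, 45.7%, 29.3% and 29.3% unthinned). Plasma cells of small intestine replicate 1 had one in 0 of 56 cells (up to 6.38%), while the 7 of replicate 2 held 5 UMIs. The small intestinal immune gates had an Il6 UMI in 7.14% and 4.17% of cells after thinning, at 112 and 124 CPM.

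Lif, an IL-6 family ligand that maintains stem cells in culture, was close to the limit of detection, with 510 UMIs in all FB. It was at 11.4, 7.21, 6.05 and 7.15 CPM in CD81+ FB and at 3.34, 2.34, 0.853 and 1.85 CPM in PDGFRαhi FB, with the same library order as above. PDGFRαhi FB were the lowest FB class in each library, by a log2 fold change of -1.81 (SE 0.23, adjusted p = 1.84e-05, edgeR). The rise in CD81+ FB had an adjusted p of 6.74e-05 (edgeR) but a log2 fold change of 1.30, under the size limit. Lif had too few UMIs to be tested between intestines in PDGFRαhi FB, and in the other 3 classes its adjusted p was 0.870 to 0.998 (edgeR).

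Il11ra1, the receptor of IL-11, varied more with the replicate number than with the intestine. In CD81+ FB it was at 86.5 and 196 CPM in the small intestine and 87.9 and 163 CPM in the colon, and in Fgfr2- FB at 89.1 and 174 CPM and at 80.0 and 196 CPM. Replicate 2 was above replicate 1 in each intestine and each FB class, and the part that kit, software version or experiment had in this was not tested. PDGFRαhi FB had 144, 273, 90.9 and 314 CPM, a log2 fold change over the other FB classes of 0.37 that is small beside the size limit (SE 0.0882, adjusted p = 0.00352, edgeR). Within colonic PDGFRαhi FB the Thbd subset held the higher level, as given above. Between intestines the adjusted p was 0.992 to 1.000 in the 4 classes (edgeR).

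Tnfsf13b, which encodes BAFF, was at 59.1 and 51.3 CPM in small intestinal and 204 and 129 CPM in colonic Fgfr2- FB. Fgfr2+ FB had 89.5 and 72.5 CPM in the small intestine and 167 and 123 CPM in the colon. Both colonic libraries exceeded both small intestinal ones in these classes, with log2 fold changes of 1.48 (SE 0.291, adjusted p = 0.111, edgeR) and 0.84 (SE 0.251, adjusted p = 0.338, edgeR). With classes from clusters these values were 2.25 (adjusted p = 0.0707, edgeR) and 0.13 (adjusted p = 0.976, edgeR), so the difference in Fgfr2+ FB depends on how the class was drawn. In PDGFRαhi FB the order was the other way, at 75.5 and 46.1 CPM in the small intestine and 40.3 and 22.5 CPM in the colon, again without overlap and without passing the test (log2 fold change -0.84, SE 0.397, adjusted p = 0.547, edgeR). CD81+ FB had 49.4, 28.9, 183 and 28.0 CPM, where colon replicate 1 alone was high.

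Tnfsf9, which encodes 4-1BB ligand, was at 78.8 and 69.1 CPM in small intestinal and 189 and 124 CPM in colonic PDGFRαhi FB (log2 fold change 1.20, SE 0.289, adjusted p = 0.150, edgeR). Fgfr2+ FB had 136 and 56.9 CPM in the small intestine and 261 and 160 CPM in the colon, and Fgfr2- FB had 151, 80.0, 266 and 142 CPM. The intestines did not overlap in the first 2 of these classes and did in Fgfr2- FB. Replicate 1 was above replicate 2 in each intestine and FB class, and CD81+ FB of small intestine replicate 1 had 263 CPM against 58.2 CPM in replicate 2. No FB class passed the test against the others (adjusted p 0.249 to 0.925, edgeR).

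Csf1, the macrophage growth factor, was found in each class of MSC. PDGFRαhi FB had 373 and 323 CPM in the small intestine and 268 and 192 CPM in the colon, while Fgfr2+ FB had 157 and 190 CPM in the small intestine and 257 and 236 CPM in the colon. The order of the intestines was thus opposite in the 2 classes, each without overlap. Within each class the test between intestines was not passed (log2 fold changes -0.48 and 0.50, adjusted p = 0.674 and 0.611, edgeR). Fgfr2- FB had 161, 163, 271 and 200 CPM and CD81+ FB 156, 147, 197 and 127 CPM.

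Il34 encodes the second ligand of the CSF-1 receptor, and it was called higher in PDGFRαhi FB than in the other FB classes, at 311 and 153 CPM in the small intestine and 109 and 56.4 CPM in the colon (log2 fold change 3.08, SE 0.402, adjusted p = 0.00015, edgeR). CD81+ FB had 1.97, 2.04, 11.3 and 4.73 CPM of it (log2 fold change -3.12, SE 0.588, adjusted p = 0.00263, edgeR). Kitl, which encodes stem cell factor, was called lower in CD81+ FB, at 14.2, 29.2, 53.2 and 26.5 CPM (log2 fold change -1.85, SE 0.191, adjusted p = 1.94e-05, edgeR).

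Tslp was at 6.01 and 7.42 CPM in small intestinal PDGFRαhi FB (9 and 19 UMIs) and at 18.4 and 24.6 CPM in colonic ones (108 and 239 UMIs). The colonic libraries were both higher, by 1.62 and 1.73 on the log2 scale within replicate numbers, but the adjusted p was 0.115 for a log2 fold change of 1.80 (SE 0.379, edgeR). In CD81+ FB it was at 27.6, 12.4, 20.1 and 14.9 CPM, in Fgfr2+ FB at 22.5, 15.8, 24.0 and 18.7 CPM and in Fgfr2- FB at 15.8, 17.3, 20.9 and 16.7 CPM. In each of these 3 classes the values of the intestines overlapped.

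**Figure D3:**
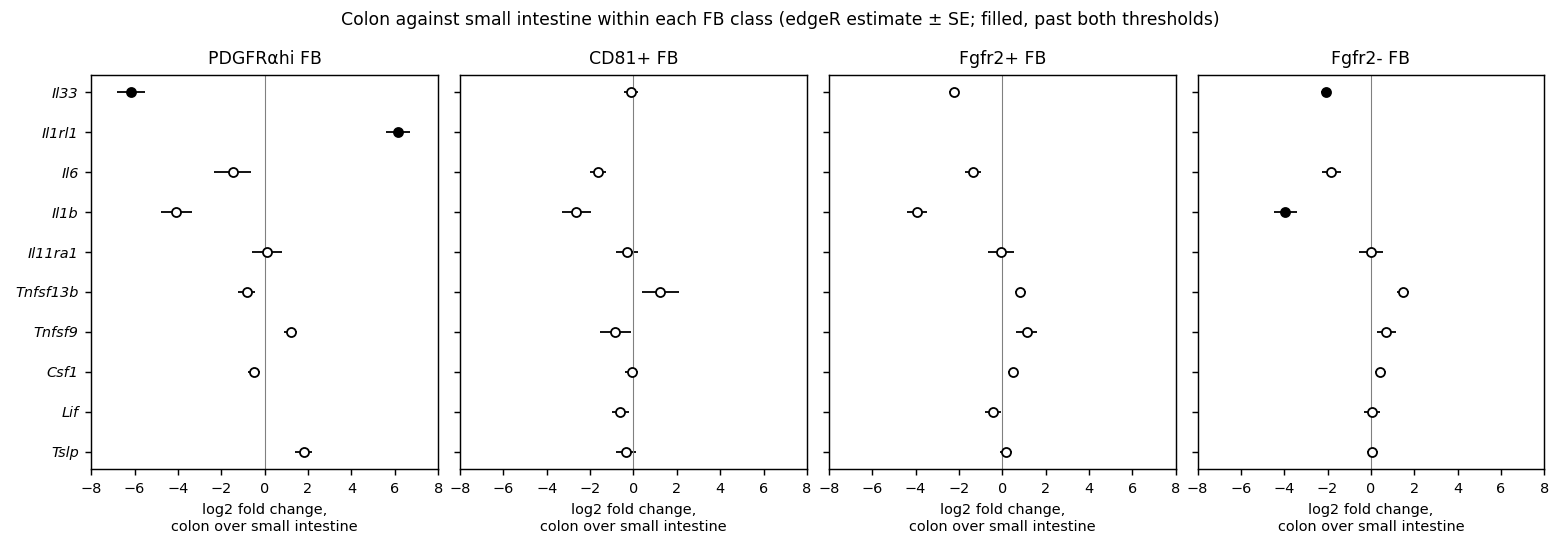
Log2 fold change of colon over small intestine for each gene within each FB class (edgeR estimate with its SE, 2 against 2 libraries), filled where both thresholds were passed. Il1rl1 is drawn for PDGFRαhi FB alone, since the other classes had 0 UMIs in the small intestine, and Lif was not tested in PDGFRαhi FB. Il33 (-6.18) and Il1rl1 (6.16) stand out in PDGFRαhi FB, and Il33 is at -0.12 in CD81+ FB.

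Counted over the members, 2 of 9 tested genes were called between intestines in PDGFRαhi FB (1 higher, 1 lower in the colon), where 1.45% of 11414 genes were called. None of 9 was called in CD81+ FB, where 0 of 11226 genes were called by edgeR (0.0%), 930 genes (8.28%) had an unadjusted p under 0.05 and DESeq2 called 204 genes. None of 10 was called in Fgfr2+ FB (0.458% of 11795 genes) and 3 of 10 in Fgfr2- FB (1.21% of 12608 genes), Il1rl1, Il33 and Il1b. Among these, Il1rl1 had 0 UMIs in small intestinal Fgfr2- FB and entered the test through the colon alone, so its call is no separate support. The median log2 fold change of the tested members was -0.48, -0.35, 0.05 and 0.06 in PDGFRαhi, CD81+, Fgfr2+ and Fgfr2- FB, where the median over all genes was 0.00747, -0.000251, 0.00643 and 0.00375. Of 85 other cytokine and receptor genes of the same families, 34 to 41 were tested in a class and 0 were called between intestines in any of them.

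The colon effect itself differed between PDGFRαhi and Fgfr2+ FB for 4 of the 10 members by a test of the difference across all genes (8.13% of 12421 genes at an adjusted p under 0.05, edgeR). The difference was -3.91 for Il33 (SE 0.397, adjusted p = 3.57e-06, edgeR), -1.66 for Tnfsf13b (SE 0.181, adjusted p = 1.13e-06, edgeR) and -0.98 for Csf1 (SE 0.162, adjusted p = 0.000406, edgeR), each lower in colonic PDGFRαhi FB than the change in Fgfr2+ FB would give. For Tnfsf13b it was -0.74 with classes from clusters (adjusted p = 0.00783, edgeR). It was 1.58 for Tslp (SE 0.371, adjusted p = 0.0101, edgeR), which was no longer past the threshold without colon replicate 2 (1.14, adjusted p = 0.0719, edgeR) or with classes from clusters (0.42, adjusted p = 0.643, edgeR).

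Between FB classes, the largest number of members was called in PDGFRαhi FB. Of the 10 members, 5 were called against the other 3 classes, Il1rl1 higher (log2 fold change 4.61, SE 0.227, adjusted p = 4.27e-09, edgeR) and Il33, Il6, Il1b and Lif lower, where 9.50% of 12195 genes were called. The fall of Il33 was 3.13 on the log2 scale (SE 0.762, adjusted p = 0.00782, edgeR) and that of Il1b 1.86 (SE 0.221, adjusted p = 9.28e-06, edgeR). The shares of all genes called for the other classes were 6.58% for CD81+ FB with 3 members (Il33 and Il6 higher, Il1rl1 lower), 1.43% for Fgfr2+ FB with 2 members (Il1b higher, Il1rl1 lower) and 0.582% for Fgfr2- FB with 1 member (Il1rl1 higher). The median log2 fold change of the members was -0.85, 0.07, 0.21 and 0.40 in PDGFRαhi, CD81+, Fgfr2+ and Fgfr2- FB, against 0.0175, -0.00406, 0.00449 and 0.00266 over all genes.

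Some of these class calls rest on few libraries. Il33 was higher in CD81+ FB by 2.24 (SE 0.586, adjusted p = 0.0155, edgeR), while CD81+, Fgfr2+ and Fgfr2- FB of the small intestine all lay between 134 and 158 CPM. The call was lost without colon replicate 1 (1.99, adjusted p = 0.0704, edgeR) or colon replicate 2 (1.44, adjusted p = 0.139, edgeR). Il1rl1 in Fgfr2- FB was higher by 1.82 (SE 0.261, adjusted p = 0.00185, edgeR) with the gate and lower by 1.51 (adjusted p = 0.0775, edgeR) with clusters, and without colon replicate 1 it was not called (1.43, adjusted p = 0.0862, edgeR). Il1rl1 in Fgfr2+ FB, lower by 2.44 (SE 0.398, adjusted p = 0.00222, edgeR), was not called without colon replicate 2 (adjusted p = 0.480, edgeR) or with clusters (-1.14, adjusted p = 0.167, edgeR).

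Of 41 tested genes of the same families other than the members, 8 were called in PDGFRαhi FB against the other classes, 4 higher and 4 lower. Tnfrsf11b, the decoy receptor osteoprotegerin, was at 5.34, 8.59, 8.87 and 9.66 CPM in PDGFRαhi FB and at 23.7, 31.5, 187 and 182 CPM in CD81+ FB, where it was called higher (log2 fold change 2.57, SE 0.209, adjusted p = 3.71e-06, edgeR). Il13ra2, a decoy receptor of IL-13, was lower in PDGFRαhi FB, in which it had 1 UMI in the 4 libraries together. Tnfsf15, which encodes TL1A, was at 8.02, 5.08, 2.22 and 11.5 CPM in PDGFRαhi FB, and Tnfrsf10b, a TRAIL receptor, at 2.67, 2.34, 3.58 and 2.16 CPM, both called higher (log2 fold changes 1.90 and 1.76, adjusted p = 0.00165 and 0.000627, edgeR). Tnfsf15 was not called without colon replicate 2 (1.45, adjusted p = 0.0602, edgeR). Tnfrsf21, a death receptor that was called lower in CD81+ FB, had 0.79 to 1.21 CPM in 3 of their libraries and 0.461 CPM in colon replicate 2 (log2 fold change -1.95, adjusted p = 0.0129, edgeR), and was not called without colon replicate 2 (adjusted p = 0.0819, edgeR).

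Single Fgfr2+ and Fgfr2- FB differed in a group of 6 stimulus-induced genes (Cxcl1, Cxcl2, Ereg, Areg, Ptgs2 and Ccl2), and some members moved with them. After thinning, 10.9% and 21.3% of these FB in the small intestine and 2.85% and 9.89% in the colon had a UMI of at least 3 of the 6 genes (77, 2135, 26 and 621 cells). They were set against the FB with none of the 6, within each library, a comparison that was chosen after the data had been seen. Il6 was at 447 against 204 CPM and 333 against 108 CPM in the small intestine and at 42.4 against 33.7 CPM and 186 against 53.8 CPM in the colon. It was higher in 4 of 4 libraries (log2 fold change 1.63, SE 0.157, adjusted p = 4.88e-06, edgeR), though by little in colon replicate 1, where 26 cells held 11 UMIs.

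Tnfsf9 was at 211 against 87.6, 95.2 against 44.2, 605 against 163 and 185 against 86.5 CPM in the same libraries, higher in 4 of 4 (log2 fold change 1.53, SE 0.121, adjusted p = 2.51e-08, edgeR). Tslp was higher in 4 of 4 libraries as well, at 33.5 against 15.2, 23.1 against 13.9, 27.0 against 21.9 and 26.1 against 14.7 CPM, with a log2 fold change of 0.99 under the size limit (SE 0.162, adjusted p = 0.000268, edgeR). These 2 called members of 9 tested stand beside 1.18% of 10956 genes called, and Tnfrsf12a (log2 fold change 1.74, SE 0.27, adjusted p = 0.0162, edgeR), the receptor of TWEAK, was the 1 of 33 other family genes tested that was called. Without colon replicate 1 Tnfsf9 and without colon replicate 2 Il6 fell to 1.36 and 1.45, under the size limit.

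Il33, Csf1, Il11ra1 and Tnfsf13b did not pass this test (adjusted p of at least 0.170, edgeR), nor did Lif (adjusted p = 0.0700, edgeR) or Il1b (adjusted p = 0.0858, edgeR). Of 16 immediate early genes, whose RNA rises during tissue digestion, 3 were called higher with the group (Nfkbia, Ier3 and Nr4a1) and the median of all 16 was 1.35 on the log2 scale against -0.02 over all genes, and their part in the result was not tested. Summed over the 16 genes, the level was 30300 to 40300 CPM in small intestinal and 46500 to 59600 CPM in colonic Fgfr2+ and Fgfr2- FB. Il1rl1, with no UMI in these FB of the small intestine, was at 88.6 against 2.65 and 56.2 against 6.55 CPM in the colon and was not tested in the fit over 4 libraries. In colonic Fgfr2- FB its level was highest in cells just under the PDGFRαhi gate (382.5 and 132.5 CPM). Ptgs2, which belongs to the stimulus-induced group, is named by the paper together with Il1rl1 as highest in its Cd9-high subset of colonic PDGFRαhi FB. The part that cells near this gate had in the Il1rl1 difference was not tested.

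**Figure D4:**
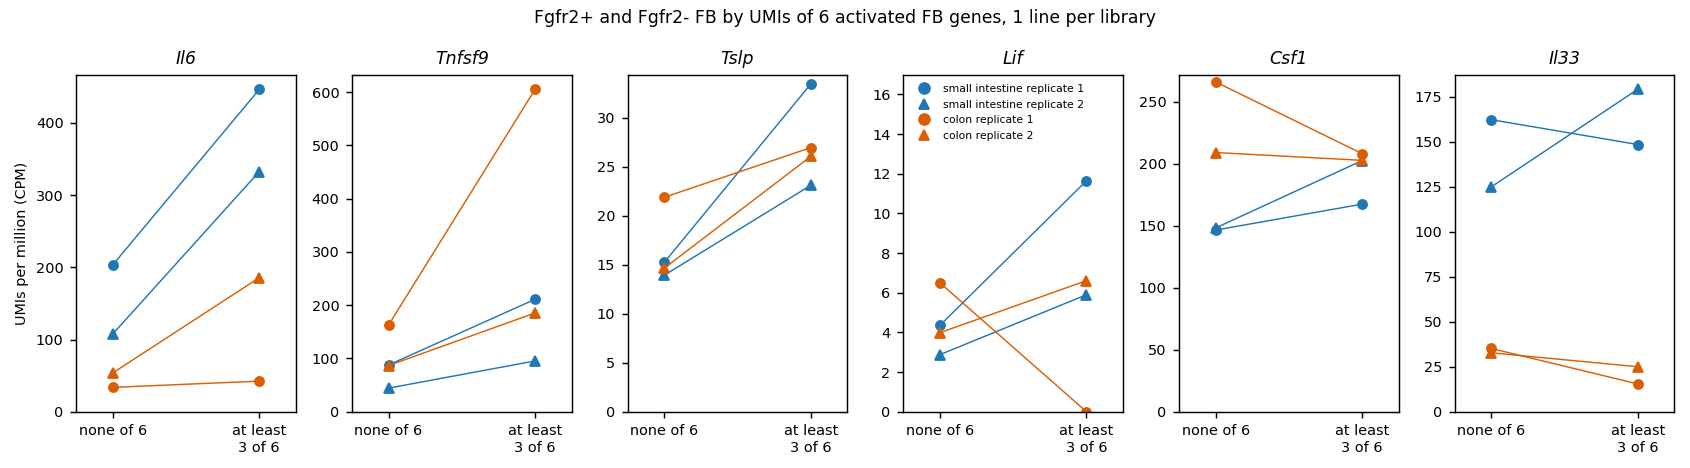
CPM (UMIs per 1000000 UMIs, linear axes from 0) of 6 members in Fgfr2+ and Fgfr2- FB that had none, or at least 3, of 6 stimulus-induced genes after thinning, with 1 line per library. Il6, Tnfsf9 and Tslp were higher in the second group in 4 of 4 libraries, while Csf1 and Il33 had lines of both directions.

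As a description, the genes whose level was most like that of a member over the 16 sums of FB class and library were found by Pearson's r of log2(CPM + 1), with no test, since sums of a library share its depth and preparation. Il33 was most like Abca8a (r = 0.977), Lepr (0.951) and Dapk1 (0.951), and Il1rl1 like Plau (0.957), Pla2g7 (0.949) and Dnaic1 (0.925). Il6 was most like Fmo2 (0.979), which encodes a redox enzyme. Il1b was most like Rgs5 (0.945), Ramp2 (0.945) and Hmcn1 (0.940), and Rgs5 itself was at 641 to 869 CPM in small intestinal and 21.4 to 52.0 CPM in colonic Fgfr2+ and Fgfr2- FB. Il11ra1 was most like Purb (0.980), Mvp (0.970) and Strn3 (0.968), Tnfsf13b like Ctsk (0.923), Amacr (0.916) and Ecm1 (0.869), Csf1 like Fbxw5 (0.933), Pkig (0.932) and Ednra (0.924), and Lif like Dcn (0.914), Tnxb (0.890) and Cd34 (0.886). Tnfsf9 and Tslp were most like Cdkn2d (0.875), Glrx (0.854) and Sbno2 (0.835), and Glul (0.877), Tuba1c (0.852) and Ly6c1 (0.841).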

How the data were processed

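Small intestinal and colonic MSC were profiled by droplet single-cell RNA-seq in 2 libraries each. Per the labels and file headers, the authors aligned reads to mm10 and made the deposited UMI counts with Cell Ranger 3.0.2 (replicate 1) or 3.1.0 (replicate 2), and used Seurat 3. Here barcodes under 500 genes or 1000 UMIs, or over 10% mitochondrial UMIs, were dropped, predicted doublets were removed (0.709 to 6.11% per library, at 0.4% per 1000 barcodes), and cells were classed by mean z-scores of marker panels (score of at least 0.5, margin 0.25). Depth was 2733 to 8833 UMIs per cell at the median. Summed counts per class and library were tested with edgeR 4.0.16 (R 4.3.3), intestines without and classes with a library block. Shares of cells were taken after thinning to 1000 UMIs, with exact Clopper-Pearson intervals of 95%. Scripts were tested on simulated data.

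The 10 members, the gene lists and the tests were chosen with earlier results of these data known. Of the other listed genes, up to 6 called per comparison with the smallest adjusted p are named, and for each member the 3 genes of highest correlation. Alternatives were DESeq2 1.42.0, RLE size factors, other filters and gates, clusters made with scanpy 1.11.5, doublets kept, blocks and leaving out each library. ICC and other sparse classes were not tested. UMIs were summed by gene symbol, and which strand or transcript a UMI came from was not used. Some of the genes most like Il6 in level are not reported here.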

Additional observations from a re-analysis of the deposited data

Results flagged for a closer look

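The colon effect of 4 members differed between PDGFRαhi FB and Fgfr2+ FB by a test of the difference itself in 1 edgeR fit over both classes. The difference on the log2 scale was -3.91 for Il33, with 45.4 and 56.2 against 0.171 and 0.925 CPM in PDGFRαhi FB and 158 and 151 against 38.0 and 29.0 CPM in Fgfr2+ FB. Leaving out single libraries gave -5.87 to -3.22 and classes from clusters gave -4.76.

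For Tnfsf13b the difference was -1.66, from -1.85 to -1.47 without single libraries and -0.74 with clusters (adjusted p = 0.00783, edgeR), so the gate moved its size by more than the libraries did. For Csf1 it was -0.98, from -1.21 to -0.77 without single libraries and -1.10 with clusters. For Tslp it was 1.58, from 1.14 to 2.10 without single libraries and 0.42 with clusters (adjusted p = 0.643, edgeR), so that value depends on the gate. These alternatives were chosen after the data had been seen, and the causes were not tested. No group had the 4 samples that a test for a single outlying library needs.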

How the results depend on the processing

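Of 564 values of single genes under alternative settings, 495 kept direction and side of the thresholds, 34 were lost, 34 were gained and 1 turned direction, Il1rl1 in Fgfr2- FB, at -1.51 with classes from clusters. Between intestines, PDGFRαhi FB had 165 genes and 2 members called, with 468 genes by DESeq2, 535 genes and 4 members without a low-count filter, and 1 member with doublets kept. CD81+ FB had 0 genes and 0 members called, with 204 genes and 1 member by DESeq2, 378 genes and 2 members without the filter, 22 genes with a stricter gate and 71 with clusters. Fgfr2+ FB had 54 genes and 0 members, with 330 genes and 3 members by DESeq2, 290 genes and 3 members without the filter, and 1 member with RLE size factors or a stricter gate. Fgfr2- FB had 153 genes and 3 members, with 393 genes by DESeq2, 492 genes without the filter, and 1 member with clusters. With single libraries left out, where a lone library was assumed to vary like the others, the counts were 54 to 423 genes and 1 to 4 members in PDGFRαhi FB, 9 to 263 and 0 to 1 in CD81+ FB, 0 to 106 and 0 to 1 in Fgfr2+ FB and 29 to 499 and 0 to 5 in Fgfr2- FB. The labels do not say that a replicate number marks a shared experiment, and deviations of same-numbered libraries correlated by 0.677 to 0.789. In a fit blocked by replicate number (the replicate block), 845, 344, 601 and 721 genes and 4, 2, 3 and 3 members were called in PDGFRαhi, CD81+, Fgfr2+ and Fgfr2- FB. The members gained were Il1b and Tslp in PDGFRαhi FB (adjusted p = 2e-09 and 2.22e-08, edgeR), Il6 and Il1b in CD81+ FB (adjusted p = 0.0366 and 0.0229, edgeR) and Il33, Il1rl1 and Il1b in Fgfr2+ FB (adjusted p = 4.47e-07, 0.00116 and 6.91e-07, edgeR). Il1rl1 had 0 UMIs in small intestinal Fgfr2+ FB and entered that fit through the colon alone.

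Between FB classes, leaving out the library block gave 3 members in place of 5 for PDGFRαhi FB, 528 genes in place of 802 and 1 member in place of 3 for CD81+ FB, 19 genes in place of 174 and 0 members in place of 2 for Fgfr2+ FB, and 4 genes in place of 71 and 0 members in place of 1 for Fgfr2- FB. DESeq2 called 0 members for Fgfr2+ and 0 for Fgfr2- FB. For Fgfr2+ FB 1 member was called with doublets kept or with clusters. For Fgfr2- FB 26 genes were called with doublets kept, 120 genes and 2 members with a stricter gate, and 261 genes and 2 members with clusters. Without single libraries, Fgfr2+ FB had 108 to 153 genes and 1 to 2 members, Fgfr2- FB 34 to 78 genes and 0 to 1 member, and the comparison by stimulus-induced genes 1 to 3 members. The causes were not tested. Colon levels were the higher of a replicate pair in 37 of 80 pairs with the gate and in 35 with clusters, and shares of cells in 34 of 80 pairs thinned and in 43 unthinned. Depth limits Lif, Il1b in the colon and Il1rl1 in the small intestine, which rest on few UMIs.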
